A study of Mus musculus with 12 samples.

Results

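The miR-30 family guide strands are the mature microRNAs (miRNAs, short RNAs that guide a silencing protein complex to messenger RNAs) named mmu-miR-30a, mmu-miR-30b, mmu-miR-30c, mmu-miR-30d and mmu-miR-30e, given below without the species prefix. They were chosen by name, as the miR-30 entries without a star, and make up 5 of the 611 mouse miRNAs on the array. The study hybridised RNA of 12 samples to single-colour miRNA arrays; all came from 3T3-L1, an established line of mouse fibroblasts that form fat cells when induced. Lithium plus MDI cells (n = 3) were lithium-treated cells given the fat-inducing medium MDI, which holds 3-isobutyl-1-methylxanthine, dexamethasone and insulin. MDI cells (n = 3) stayed in that medium for 3 days, then in medium with insulin for 2 days and for 2 days in medium without it, with the endpoint on day 7. Preadipocytes given lithium chloride at 25 mM make up the lithium group (n = 3), and the preadipocyte group (n = 3) had neither treatment. All 4 groups share the line and a medium with 10% serum. The schedule of the other 3 groups is not given in the sources used here, so time in culture cannot be told apart from the treatments. In the study's design MDI stands for suppressed and lithium for activated WNT signalling, and the combined treatment asks whether the cells can still become fat cells under lithium. Whether the replicates were grown as separate cultures is not stated, so they may be technical replicates. The p-values speak for the spread among such samples within groups, estimated over all 12 arrays together.

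A miRNA hairpin is cut into a duplex, of which the guide strand is mostly kept and the passenger strand, written with a star, is mostly lost. Target messenger RNAs are recognised mainly through the seed, bases 2 to 8 from the 5′ end, so miRNAs with one seed are grouped into a family. In human fat-derived stem cells, miR-30a and miR-30d have been reported to promote fat cell formation and to repress RUNX2, a transcription factor of bone formation. In mouse brown fat, miR-30b and miR-30c have been reported to repress Nrip1, a corepressor of the thermogenic programme.

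The mature sequences below show what the family shares and where its members differ, with the seed in capitals (RefSeq, GRCm38.p6, which held 3 of the 5 guides). The last of them, miR-384-5p, is no member by name but carries the seed of the family.
miR-30a: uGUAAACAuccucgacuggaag
miR-30c: uGUAAACAuccuacacucucagc
miR-30e: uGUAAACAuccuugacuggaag
miR-384-5p: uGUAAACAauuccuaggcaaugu
Of 1679 mature mouse miRNAs in the table, these 4 had that seed. miR-30a, miR-30c and miR-30e shared their first 12 bases. miR-30a and miR-30e, both of 22 bases, differed by 1 substitution, C13U with miR-30a first and positions counted from the 5′ end. Hybridisation of one of these to the other's probe was not tested. miR-30c had 23 bases and differed from both in the part after base 12. miR-384-5p shared the first 8 bases with miR-30a and was detected on 0 of 12 arrays.

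The hairpins show that the guides come from separate genes, 2 of which give one mature miR-30c; the guide is in capitals.
Mir30a: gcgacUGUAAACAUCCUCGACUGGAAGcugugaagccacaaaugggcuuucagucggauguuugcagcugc
Mir30c-2: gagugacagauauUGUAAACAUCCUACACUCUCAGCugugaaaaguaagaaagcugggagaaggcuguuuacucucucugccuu
Mir30c-1: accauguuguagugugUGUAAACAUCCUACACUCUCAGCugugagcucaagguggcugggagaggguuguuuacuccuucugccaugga
Mir30e: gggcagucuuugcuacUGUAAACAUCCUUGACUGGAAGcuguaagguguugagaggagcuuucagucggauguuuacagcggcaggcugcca
On GRCm38.p6, Mir30a lies at chr1:23272269-23272339 and Mir30c-2 at chr1:23291701-23291784, both on the plus strand and 19.4 kb apart. Mir30c-1 at chr4:120769534-120769622 and Mir30e at chr4:120772606-120772697 lie on the minus strand, 2.98 kb apart, within the span of Nfyc, which encodes a subunit of the transcription factor NF-Y. Mir30b and Mir30d are neighbours on chromosome 15 with 0 annotated genes between them. An array signal for miR-30c can come from either of its 2 genes.

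Each array held 13715 spots, and 126 to 177 miRNAs per array were detected, meaning that a share over 0.5 of a probe's spots were well above background. Precision is limited by the number of arrays, which have no counting depth; across the 157 tested miRNAs, the SE (standard error) of a difference between groups had a median of 0.335 on the log2 scale. A miRNA was tested if some group had it detected on each of its 3 arrays. The groups were not cleanly apart, with 6 of 12 arrays on average more alike to the arrays of another group. Every lithium plus MDI array was among these 6. Replicate 3 of lithium plus MDI, replicate 1 of lithium and replicate 3 of preadipocytes had been singled out in earlier results of these data as standing apart from their groups. Their mean r to their own group was 0.924, 0.942 and 0.939, and values without them are given where they change a result. In that order, they were most alike to preadipocytes (mean r of 0.965), to MDI (0.960) and to lithium (0.957). These arrays had the lowest mean r to their own group. No threshold for singling them out is given, and lithium plus MDI replicate 2 lay close to them at 0.944. The arrays sat on 2 slides, the first with MDI replicate 1 and the 3 preadipocyte arrays and the second with the other 8, so lithium and preadipocytes shared no slide. All 8 mesenchymal markers (miR-199a, miR-214, miR-143 and others) were tested, and 7 were detected on all 12 arrays. Of 24 markers of epithelium, muscle, blood, neural tissue, liver and endothelium, 22 were detected on 0 arrays, with miR-128 detected on 7 and miR-205 on 3. Their summed linear signal was 41.4 to 59.7 in lithium plus MDI, 32.2 to 43.2 in MDI, 26.6, 99.7 and 122 on lithium replicates 1, 2 and 3, and 58.2 to 77.3 in preadipocytes. These sums were not scaled between arrays, while the miR-30 levels below are. Lithium replicates 2 and 3, with the highest sums of all arrays, were also the arrays with the highest miR-30a and miR-30c. Lithium replicate 1, with the lowest sum, was the lithium array with the lowest level of each member. The unscaled sum of the mesenchymal markers was 13341.5, 10078 and 12479 on lithium replicates 1, 2 and 3. It was 11402.5 to 28978.4 on the arrays of the other groups. The part of these markers in the results below was not tested.

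All 5 guide strands were detected in all 4 groups, in 60 of 60 measurements, with linear probe signals between 29.3 and 456. In the values that follow, signals are log2 values relative to the 75th percentile of 181 probes that every array detected. A miRNA is given by its brightest probe, and levels are compared between groups and not between miRNAs, since probes differ in brightness. In bulk samples a lower level in every cell and fewer cells with the miRNA cannot be told apart. No member passed the threshold (limma, adjusted p under 0.05) in any of the 7 comparisons, so the values below are descriptions of size with their errors.

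miR-30a had scaled log2 signals of -0.65, -0.69 and -1.22 in lithium plus MDI cells, -1.0, -0.95 and -1.10 in MDI cells, -0.99, 0.15 and -0.12 in lithium cells, and -1.33, -1.31 and -1.06 in preadipocytes. The group means were -0.85 ± 0.32 in lithium plus MDI, -1.02 ± 0.07 in MDI, -0.32 ± 0.60 in lithium and -1.23 ± 0.15 in preadipocytes (SD, n = 3). Lithium replicates 2 and 3 lay above every array of the other groups, while lithium replicate 1 lay among the MDI arrays. Neighbouring groups in the order lithium, lithium plus MDI, MDI, preadipocytes overlapped.

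miR-30b had -1.54, -1.54 and -1.05 in lithium plus MDI cells, -2.21, -1.67 and -1.97 in MDI cells, -1.79, -1.24 and -0.88 in lithium cells, and -1.97, -2.04 and -1.43 in preadipocytes. Its group means were -1.38 ± 0.28 in lithium plus MDI, -1.95 ± 0.27 in MDI, -1.30 ± 0.46 in lithium and -1.81 ± 0.34 in preadipocytes (SD, n = 3). All 3 lithium plus MDI arrays lay above all 3 MDI arrays. The preadipocyte arrays overlapped with each treated group.

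miR-30c had -0.43, -0.62 and -0.48 in lithium plus MDI cells, -1.51, -1.11 and -1.44 in MDI cells, -1.10, -0.02 and -0.16 in lithium cells, and -1.29, -1.24 and -1.05 in preadipocytes. Its group means were -0.51 ± 0.10 in lithium plus MDI, -1.35 ± 0.21 in MDI, -0.43 ± 0.59 in lithium and -1.19 ± 0.13 in preadipocytes (SD, n = 3). The lithium plus MDI arrays lay above every MDI and every preadipocyte array. Lithium replicate 1 again lay far below the other lithium arrays and among the preadipocytes.

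miR-30d had -2.15, -2.42 and -1.65 in lithium plus MDI cells, -2.31, -2.45 and -2.92 in MDI cells, -2.08, -2.06 and -1.78 in lithium cells, and -1.89, -2.03 and -1.81 in preadipocytes. Its group means were -2.07 ± 0.39 in lithium plus MDI, -2.56 ± 0.32 in MDI, -1.98 ± 0.17 in lithium and -1.91 ± 0.11 in preadipocytes (SD, n = 3). The 3 MDI arrays lay below every lithium and every preadipocyte array. miR-30d was the member whose mean in preadipocytes was above that in each treated group, though its lithium mean was the higher one after quantile normalization, with the authors' value table, with array weights and without the 3 arrays that stood apart, and with the slide as a term both its lithium and its lithium plus MDI mean were higher.

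miR-30e had -2.85, -2.94 and -2.0 in lithium plus MDI cells, -2.86, -3.09 and -3.55 in MDI cells, -3.05, -2.24 and -2.26 in lithium cells, and -2.95, -2.88 and -2.44 in preadipocytes. Its group means were -2.60 ± 0.52 in lithium plus MDI, -3.17 ± 0.35 in MDI, -2.52 ± 0.46 in lithium and -2.76 ± 0.27 in preadipocytes (SD, n = 3). Every pair of its groups overlapped. MDI had the lowest mean for miR-30b, miR-30c, miR-30d and miR-30e.

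**Figure D1:**
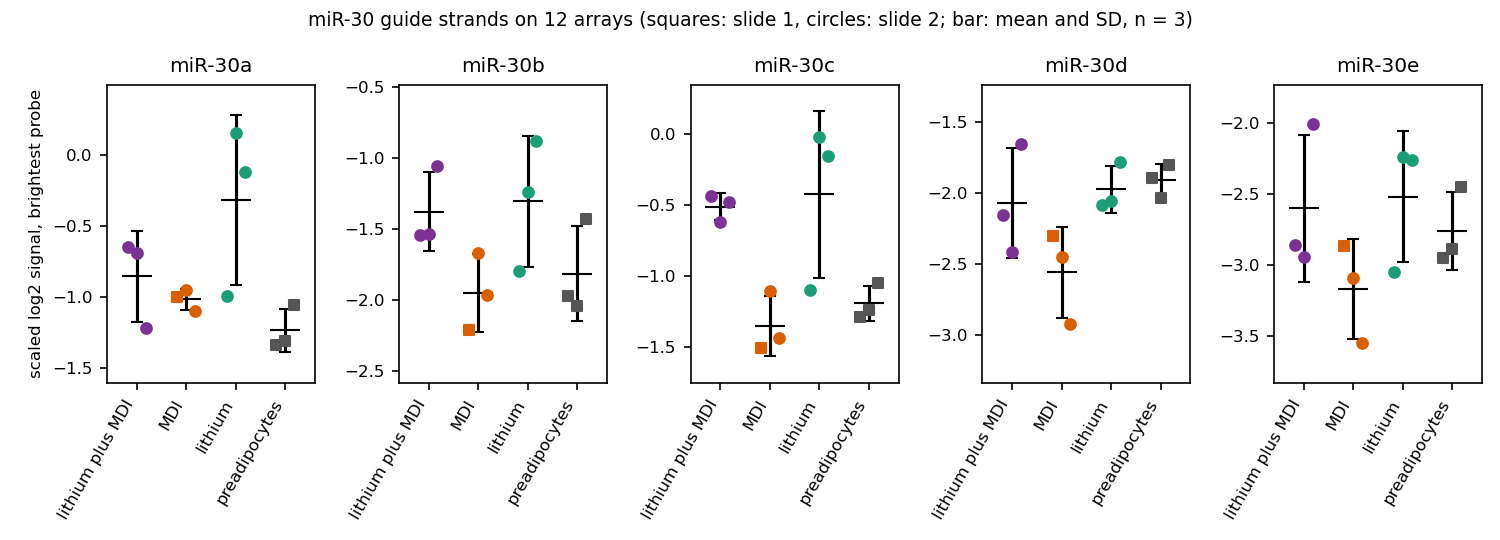
Scaled log2 signal of each miR-30 guide strand on 12 arrays, by group, with points for single arrays (squares slide 1, circles slide 2) and bars for the mean and SD (n = 3). Each panel has its own axis range of equal height, and lithium replicate 1, the leftmost lithium point, lies below the other 2 lithium points for all 5 members.

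The comparison of MDI with lithium sets the model of suppressed against that of activated WNT signalling. All 5 members had lower means in MDI than in lithium cells, by log2 differences of -0.70 ± 0.30 for miR-30a, -0.64 ± 0.30 for miR-30b, -0.93 ± 0.29 for miR-30c, -0.58 ± 0.27 for miR-30d and -0.65 ± 0.33 for miR-30e (difference ± SE, n = 3 each). None passed the threshold (limma, adjusted p between 0.104 for miR-30c and 0.236 for miR-30e), and 0% of all tested miRNAs did. At an unadjusted p under 0.05 there were 3 members (miR-30a, miR-30c and miR-30d), against 21% of all tested miRNAs. Of the 157 tested miRNAs, 36.3% were lower in MDI, and their median difference was 0.21 against -0.65 for the members. In 2 members, miR-30c and miR-30d, the MDI and lithium arrays did not overlap, as in 30.6% of all tested miRNAs. For miR-30c the nearest arrays all but met, with MDI replicate 2 at -1.11 and lithium replicate 1 at -1.10.

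The lower level in MDI than in lithium held its sign for all 5 members under each of 28 alternatives, scalings included, though filters on other miRNAs and leaving out arrays of the other groups cannot move it. Lithium replicate 1, on average most alike to the MDI arrays, decided the call for miR-30a and miR-30c. Without it miR-30a differed by -1.03 (limma, adjusted p = 0.0366) and miR-30c by -1.26 (adjusted p = 0.0074), the other 3 members did not pass (adjusted p from 0.0626 to 0.147), and 15.9% of all tested miRNAs passed. Without all 3 arrays that stood apart, 5 of 5 members passed, with differences between -0.64 for miR-30d and -1.26 for miR-30c, and so did 42.0% of all tested miRNAs. Those arrays were singled out in these same data for lying far from their groups. Leaving them out therefore favours calls, and these calls are given as a description. On slide 2 alone, with 2 MDI arrays, the differences were between -0.51 for miR-30b and -0.85 for miR-30c, and none passed (adjusted p from 0.212 to 0.392).

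In lithium cells against preadipocytes, 4 of 5 members had higher means, as did 45.2% of all tested miRNAs. The log2 differences were 0.91 ± 0.30 for miR-30a, 0.51 ± 0.30 for miR-30b, 0.77 ± 0.29 for miR-30c and 0.24 ± 0.33 for miR-30e, with miR-30d at -0.06 ± 0.27 (difference ± SE). The adjusted p-values ran from 0.111 for miR-30a to 0.881 for miR-30d (limma), and 6.37% of all tested miRNAs passed. The groups did not overlap in 1 member, miR-30a, as in 29.9% of all tested miRNAs. Without lithium replicate 1, miR-30a (1.25) and miR-30c (1.1) passed, both at an adjusted p of 0.0145 (limma), as did 16.6% of all tested miRNAs.

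The sign of the difference from preadipocytes depended on how the arrays were scaled. Before scaling, the 75th percentile of linear signal was 265 to 477 on the lithium plus MDI arrays, 264 to 382 on the MDI arrays, 316 to 414 on the lithium arrays and 503 to 780 on the preadipocyte arrays. Division by the percentile over all mouse probes moved the median of all tested miRNAs in lithium against preadipocytes to -0.90, against -0.07 with the scaling used here. It turned miR-30b, miR-30c and miR-30e to lower and left miR-30a at 0.02, with miR-30d past the threshold as lower at -0.96 (limma, adjusted p = 0.0358), where 49.7% of all tested miRNAs passed, and with no scaling miR-30b and miR-30e were lower. Relative to the median of all tested miRNAs, the members' median stood higher by 0.57 with the scaling used here and by 0.51 with each of these settings, 0.72 after quantile normalization and 0.38 after normexp background correction. The slides of these groups are not shared. A slide term rests on the MDI arrays, of which replicate 1 alone was on slide 1. With this term miR-30a differed by 0.94 and miR-30d by 0.31, neither past the threshold (limma, adjusted p = 0.491 and 0.918).

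In MDI cells against preadipocytes, the fat-inducing step itself, miR-30d had the largest difference of the members, -0.65 ± 0.27 (limma, adjusted p = 0.203, unadjusted p = 0.0308). The others were at 0.22 ± 0.30 for miR-30a, -0.14 ± 0.30 for miR-30b, -0.16 ± 0.29 for miR-30c and -0.41 ± 0.33 for miR-30e. No member passed, against 3.18% of all tested miRNAs. The groups did not overlap in 1 member, miR-30d, as in 26.8% of all tested miRNAs. Within slide 1, MDI replicate 1 differed from the mean of 3 preadipocyte arrays by 0.23, -0.40, -0.31, -0.40 and -0.10 for miR-30a to miR-30e. Division by the percentile over all probes moved the median of all miRNAs to -0.64, against 0.10, and miR-30b, miR-30c, miR-30d and miR-30e then passed as lower, as did 30.6% of all tested miRNAs; miR-30a turned to -0.59 there and to -0.68 with no scaling.

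In lithium plus MDI cells against preadipocytes, miR-30c differed by 0.68 ± 0.29 (limma, adjusted p = 0.244), and its groups did not overlap, as in 17.8% of all tested miRNAs. The other members differed by 0.38 ± 0.30 for miR-30a, 0.44 ± 0.30 for miR-30b, -0.16 ± 0.27 for miR-30d and 0.16 ± 0.33 for miR-30e. No member passed, against 1.27% of all tested miRNAs. All 5 were lower with no scaling and with the percentile over all probes, so no direction is given here.

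In lithium plus MDI cells against MDI cells, which asks what lithium adds to induction, all 5 members had higher means. miR-30c differed by 0.84 ± 0.29 (limma, adjusted p = 0.781, unadjusted p = 0.0123), miR-30b by 0.57 ± 0.30, miR-30e by 0.57 ± 0.33, miR-30d by 0.49 ± 0.27 and miR-30a by 0.16 ± 0.30. Of all tested miRNAs 72.6% were higher as well, and their median was 0.18 against 0.57 for the members. The arrays did not overlap in 2 members, miR-30b and miR-30c, as in 12.1% of all tested miRNAs, and 0% of those passed the threshold. miR-30a turned to -0.07 with the percentile over all probes and to -0.05 after quantile normalization, while the other 4 kept their sign under each of 28 alternatives.

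In lithium plus MDI cells against lithium cells, the induction step under lithium, all 5 members were lower in the mean, against 28.7% of all tested miRNAs. miR-30a differed by -0.53 ± 0.30 (limma, adjusted p = 0.235), and miR-30b, miR-30c, miR-30d and miR-30e lay between -0.10 and -0.07, within their SE. The median of all tested miRNAs was 0.39. All 5 members overlapped between these groups, while 33.8% of tested miRNAs did not. Without lithium replicate 1 miR-30a differed by -0.87 (limma, adjusted p = 0.0422), where 20.4% of all tested miRNAs passed. The signs of the other 4 turned when single arrays of these groups were left out.

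The interaction asks whether the MDI difference under lithium differs from the MDI difference without it. It was -0.75 ± 0.43 for miR-30a, 0.06 ± 0.43 for miR-30b, 0.07 ± 0.41 for miR-30c, 0.55 ± 0.38 for miR-30d and 0.32 ± 0.47 for miR-30e. No member passed (limma, adjusted p from 0.341 to 0.932), nor did any tested miRNA, while 22.3% of all had an unadjusted p under 0.05, against 0 members.

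**Figure D2:**
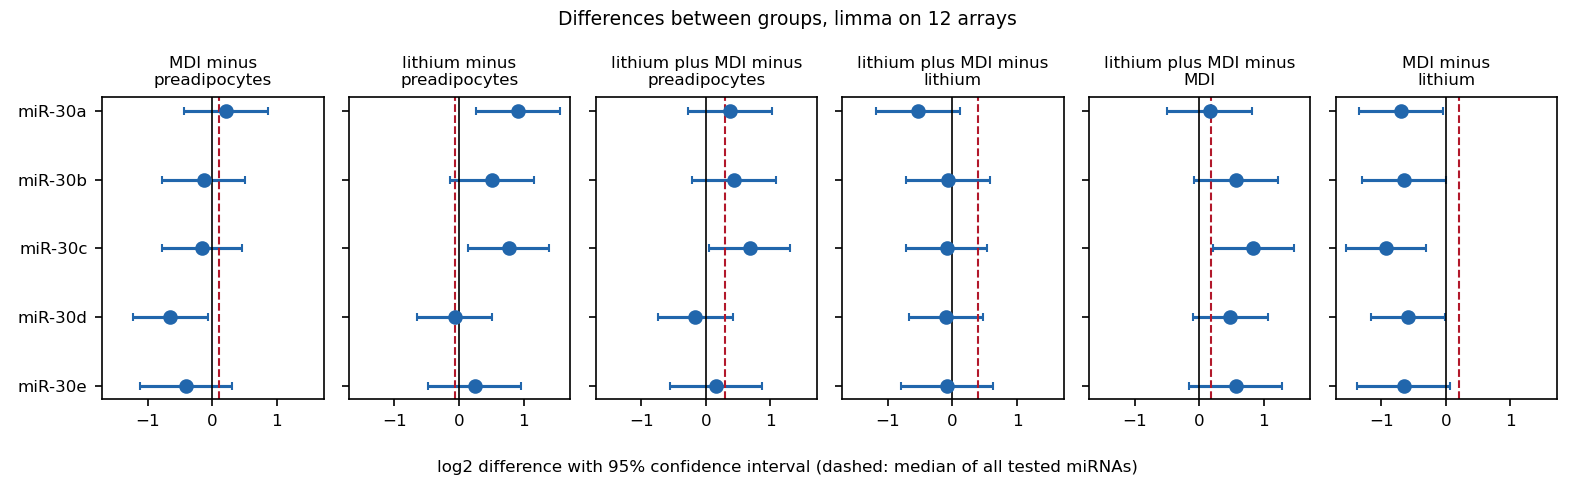
Log2 differences between groups for the 5 guide strands, with 95% confidence intervals from limma on 12 arrays, beside 0 (solid line) and the median of 157 tested miRNAs (dashed line). All 5 points lie left of 0 for MDI minus lithium under each scaling run, while the signs in the comparisons with preadipocytes turn with the scaling in at least 1 member.

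Differences between members on one array do not change when the array is divided by a single factor. Another background correction or quantile normalization can move them. Their absolute size holds the unlike brightness of the probes, so only its change between groups is read. miR-30d minus the mean of the other 4 members was -0.78, -0.97 and -0.46 on the lithium plus MDI arrays, -0.41, -0.75 and -0.91 on the MDI arrays, -0.35, -1.22 and -0.93 on the lithium arrays, and -0.01, -0.16 and -0.31 on the preadipocyte arrays. All 9 treated arrays lay below all 3 preadipocyte arrays, though the nearest treated array, lithium replicate 1, lay close to preadipocytes replicate 3. This quantity was chosen after the values were seen and is given without a test. Its change against preadipocytes was -0.58 for lithium plus MDI, -0.53 for MDI and -0.67 for lithium. Of 27 alternatives 13 left each of these within 0.001, and they tell nothing of its stability. The slide moved it most towards 0: with the slide as a term it was -0.16 for lithium plus MDI, -0.25 for MDI and -0.26 for lithium. Normexp background correction also moved it towards 0, to -0.39 for lithium plus MDI, -0.29 for MDI and -0.49 for lithium. The preadipocyte arrays were all on slide 1, where MDI replicate 1 had -0.41 and was the sole treated array. miR-30d was not the sole member to shift. miR-30a minus the mean of the other 4 rose against preadipocytes by 0.55 in MDI and 0.55 in lithium, without overlap. In lithium plus MDI it rose by 0.10, with overlap. miR-30d minus miR-30e changed by -0.24 in MDI without overlap. It changed by -0.31 in lithium and -0.32 in lithium plus MDI, both with overlap.

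miR-30a minus miR-30d was 1.50, 1.73 and 0.43 on the lithium plus MDI arrays, 1.31, 1.50 and 1.82 on the MDI arrays, 1.09, 2.22 and 1.66 on the lithium arrays, and 0.56, 0.72 and 0.75 on the preadipocyte arrays. The MDI and lithium arrays lay above all preadipocyte arrays, and lithium plus MDI replicate 3 lay below them. miR-30b minus miR-30d was 0.61, 0.88 and 0.60 on the lithium plus MDI arrays, 0.09, 0.78 and 0.96 on the MDI arrays, 0.29, 0.82 and 0.91 on the lithium arrays, and -0.08, -0.01 and 0.38 on the preadipocyte arrays. The genes of miR-30b and miR-30d are neighbours. Without a slide term, mean miR-30b minus miR-30d rose against preadipocytes by 0.60 in lithium plus MDI, 0.51 in MDI and 0.57 in lithium. The MDI and lithium arrays overlapped with the preadipocyte arrays in this quantity, and the lithium plus MDI arrays did not. With the slide as a term, miR-30b and miR-30d differed from preadipocytes by -0.399 and -0.395 in MDI. They then differed by 0.11 and 0.31 in lithium and by 0.04 and 0.22 in lithium plus MDI. These slide-term values rest on MDI replicate 1, the sole treated array on slide 1. They cannot decide whether the rise of miR-30b over miR-30d is kept, and no divergence of these neighbours is read here.

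**Figure D3:**
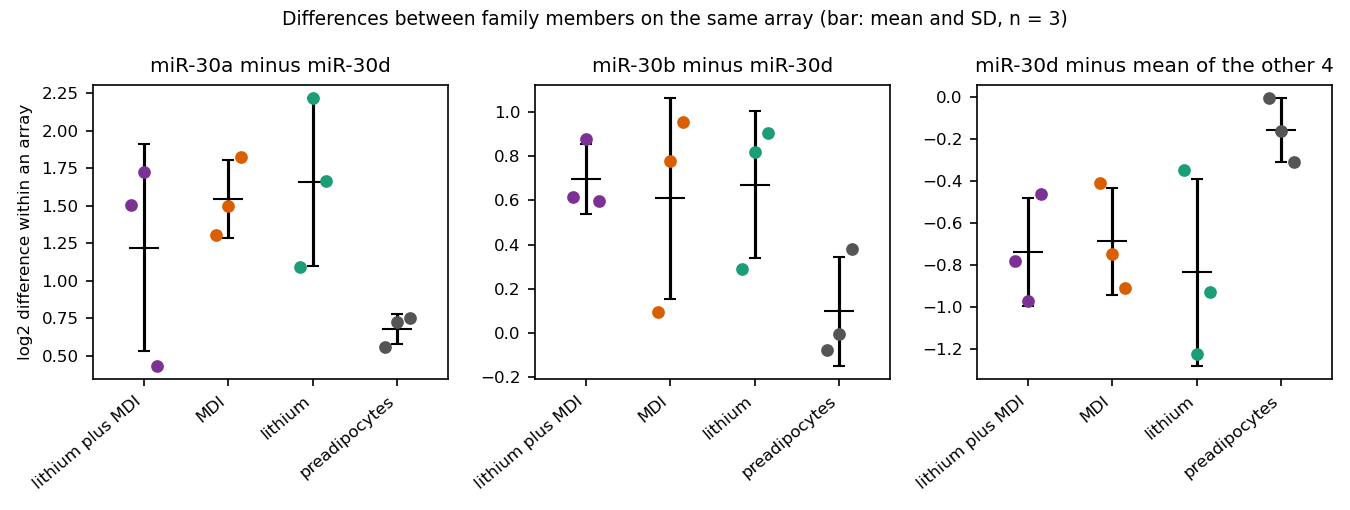
Log2 differences between family members on the same array, by group, with points for single arrays and bars for the mean and SD (n = 3). In the right panel the 9 treated arrays lie between -1.22 and -0.35 and the 3 preadipocyte arrays between -0.31 and -0.01.

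Across the 12 arrays the members fell on a gradient of likeness. Pearson's r was 0.88 between miR-30b and miR-30c, 0.83 between miR-30d and miR-30e, and 0.80 between miR-30a and miR-30c, but 0.07 between miR-30a and miR-30d. Among those from neighbouring genes, miR-30b and miR-30d had r = 0.53, miR-30c and miR-30e, neighbours through Mir30c-1, had r = 0.71, and the pair of miR-30a and miR-30c given above are neighbours through Mir30c-2. Between all pairs of tested miRNAs the median r was 0.12 over 12246 pairs. The 12 points hold 4 groups and share the scaling and the brightness of each array, so these values describe the arrays.

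The miRNAs outside the family with the profile most like the mean of the 5 guides were miR-148a (r = 0.93), miR-15a (0.86), miR-107 (0.82), miR-193 (0.79) and let-7c (0.78), each over 12 arrays. For single guides the most alike was miR-192 for miR-30a (r = 0.87), miR-15a for miR-30b (0.90) and for miR-30c (0.85), miR-181a for miR-30d (0.89) and miR-148a for miR-30e (0.84).

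Each guide had further, dimmer probes, which tell whether a difference rests on a single probe. In lithium against preadipocytes the dimmer probes gave 1.28 and 1.09 for miR-30a, beside 0.91 for the brightest. The dimmer probe gave 0.88 for miR-30b, 1.27 for miR-30c, -0.04 for miR-30d and 0.47 for miR-30e, beside 0.51, 0.77, -0.06 and 0.24. The order of the members was nearly kept, with miR-30d nearest to 0 on both of its probes. In MDI against preadipocytes the dimmer probes of miR-30b (0.06) and miR-30c (0.14) had the opposite sign to the brightest ones, -0.14 and -0.16, so the 2 probes disagree there. In MDI against lithium all 11 guide probes lay below 0. The dimmer probe of miR-30b was detected on 10 arrays with 1 at the floor, and that of miR-30e on 6 with 3 at the floor. The correlation of a dimmer probe with the brightest one over 12 arrays was between 0.91 and 0.99.

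The array held 5 passenger strands of the family, of which miR-30b*, miR-30c-1* and miR-30c-2* were detected on 0 arrays. miR-30a* was detected on 9 arrays and miR-30e* on 11, and their sequences show how alike they are, with bases 2 to 8 in capitals.
miR-30a*: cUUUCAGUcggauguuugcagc
miR-30e*: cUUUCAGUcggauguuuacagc
They differ by 1 substitution, G18A with miR-30a* first and positions counted from the 5′ end. miR-30a* had -3.29, -3.55 and -4.97 in lithium plus MDI cells, -4.17, -4.45 and -4.43 in MDI cells, -4.62, -3.14 and -3.58 in lithium cells, and -4.97, -4.44 and -4.97 in preadipocytes, where -4.97 is the floor and has no order. It was at the floor on 2 of 3 preadipocyte arrays and detected on 1 of 3 MDI arrays, so no difference is given for it. miR-30e*, detected on 2 MDI arrays and on all arrays of the other groups, differed by 0.65 ± 0.31 in lithium against preadipocytes (limma, adjusted p = 0.236) and by 0.83 ± 0.31 in lithium plus MDI against preadipocytes (adjusted p = 0.217), beside 0.24 and 0.16 for its guide. With the percentile over all probes these differences of miR-30e* were -0.24 and -0.22, so no direction is given.

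**Figure D4:**
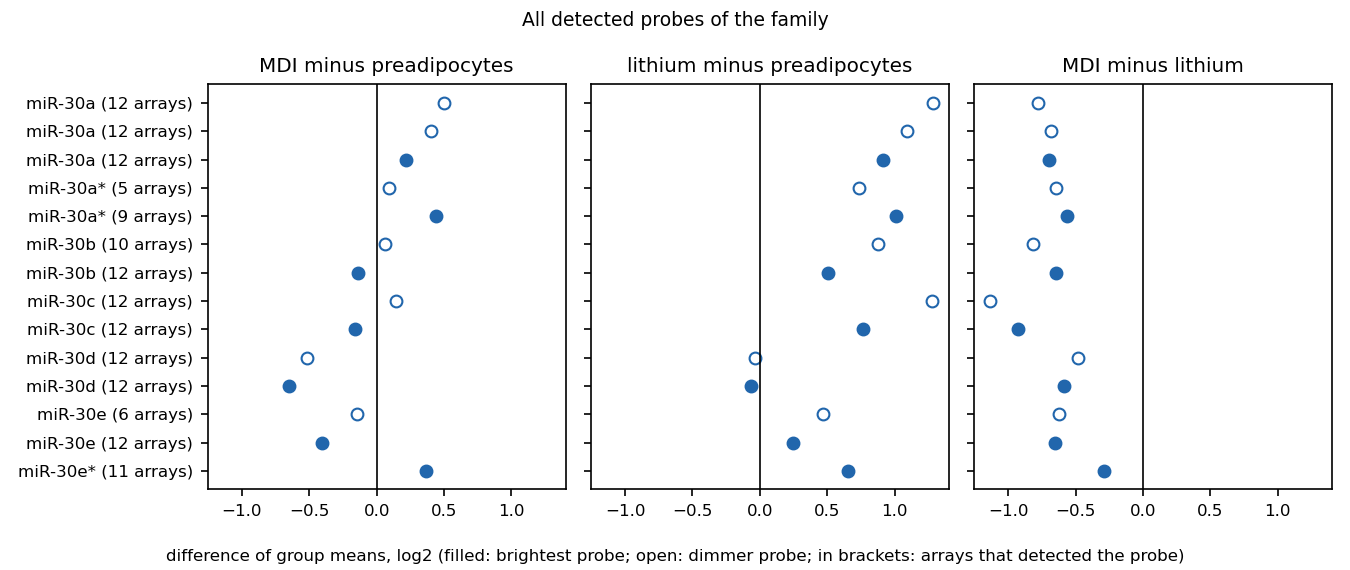
Differences of group means (log2) for each probe of the miR-30 guides and passenger strands that was detected on at least 1 array, with the brightest probe filled and the dimmer ones open; brackets give the number of arrays that detected it. Points of miR-30a* and of the dimmer miR-30b and miR-30e probes include arrays at the floor. In MDI minus lithium all 11 guide probes lie left of 0, and in lithium minus preadipocytes the 2 miR-30d probes lie beside 0, while with the percentile over all probes most miR-30 guides turn to lower in that comparison.

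Other miRNAs linked to fat cell formation give the setting. Of 15 miRNAs outside the family reported to promote it, 11 were tested, and 0 passed in MDI against preadipocytes, with 4 higher and 7 lower and a median of -0.50 against 0.10 for all tested miRNAs. The 2 largest differences were -1.58 ± 0.44 for miR-210, a miRNA raised by low oxygen (limma, adjusted p = 0.0614), and 1.38 ± 0.42 for miR-20a of the miR-17-92 cluster (adjusted p = 0.083). In lithium against preadipocytes 8 of the 11 were higher, against 45.2% of all tested miRNAs, with 0 past the threshold. Their median was 0.14, against -0.07 for all tested miRNAs. With the percentile over all probes, however, 0 of the 11 were higher. Of 15 reported to inhibit it, 9 were tested, and 4 were higher and 5 lower in MDI against preadipocytes with 0 past the threshold, and 1 was higher with the percentile over all probes. The 2 largest there were miR-155, at -1.04 ± 0.38 (limma, adjusted p = 0.155), and miR-27a, at 0.87 ± 0.23 (adjusted p = 0.0595). In lithium against preadipocytes 3 of the 9 were higher and 6 lower, with a median of -0.46 and 1 past the threshold as lower. With the percentile over all probes 0 of the 9 were higher in that comparison. miR-155, known from inflammation, passed in lithium against preadipocytes at -1.42 (limma, adjusted p = 0.0382), as did 6.37% of all tested miRNAs. miR-27a, which is known to repress Pparg, passed in lithium plus MDI against preadipocytes at 1.31 (limma, adjusted p = 0.0133), as did 1.27%. With the percentile over all probes miR-155 in lithium was at -2.32 against preadipocytes (limma, adjusted p = 0.00409). The median of all tested miRNAs was then -0.90, and 49.7% of them passed. With the same scaling miR-27a in lithium plus MDI was at 0.26 against preadipocytes (limma, adjusted p = 0.575).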

How the data were processed

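Scanner files of 12 single-colour arrays were used. Per the file headers, the deposited intensity is a spot signal from which Agilent Feature Extraction took the background, with no scaling between arrays; the headers name version 10.5.1.1, while the submitters' processing notes name 9.5.3. The authors' deposited value table was read as log2, since it correlated at r of 0.997 or above with the log2 total signal per miRNA; its centring is not given in the sources used here, its columns have medians between 0.00175 and 0.0958, and it served as an alternative.

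Outlier spots were left out, the spots of a probe averaged, and each array divided by its 75th percentile over 181 probes detected on all 12 arrays. A floor at the 5th percentile of well-above-background values (log2 of -4.97) preceded log2. limma 3.58.1 in R 4.3.3 was fitted to 157 miRNAs with a mean for each of 4 groups and no block; its moderated test was two-sided, with Benjamini-Hochberg adjustment and a threshold of 0.05. It was tested on simulated data. Figures were drawn with matplotlib 3.10.9. Named are the 5 guides, the passenger strands, miRNAs with the same seed in the reference table, the 5 most alike in profile and the most alike per guide, and the 2 with the largest MDI difference from each of 2 fat cell lists. The members and lists were chosen with earlier results of these data known. The alternatives are other scalings, background correction, filters, probe rules, blocks, weights and left-out arrays.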

Additional observations from a re-analysis of the deposited data

How the results depend on the processing

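Of 955 values of single members under alternatives, 842 kept their direction and their side of the threshold, 47 passed the threshold and 66 turned their sign; MDI minus lithium turned in 0 of 140. The cause was not tested. Members called, against 0 in every comparison, were as follows, each with the share of all 157 tested miRNAs called in brackets. With the percentile over all mouse probes there was 1 in lithium plus MDI (28.0%), 4 in MDI (30.6%) and 1 in lithium (49.7%), each against preadipocytes. With no scaling there were 2 in MDI against preadipocytes (39.5%) and 1 in the interaction (38.9%). In lithium against preadipocytes there was 1 after quantile normalization (11.5%) and 1 with the values the authors deposited (13.4%). With array weights, in an estimate that stopped before convergence, there were 2 in lithium plus MDI (42.0%), 1 in MDI (36.3%) and 4 in lithium (63.7%) against preadipocytes, 3 in lithium plus MDI against lithium (75.8%), 1 in lithium plus MDI against MDI (14%), 5 in MDI against lithium (57.3%) and 1 in the interaction (52.2%). Without the 3 arrays that stood apart there were 2 in lithium plus MDI (24.2%) and 4 in lithium (52.9%) against preadipocytes, 2 in lithium plus MDI against lithium (56.1%), 5 in MDI against lithium (42.0%) and 1 in the interaction (43.9%). Leaving out single arrays gave 0 to 2 in lithium against preadipocytes, 0 to 1 in lithium plus MDI against lithium, 0 to 2 in MDI against lithium and 0 in the other 4 comparisons.

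Signs turned as follows. With the percentile over all probes miR-30a was at -0.59 in MDI minus preadipocytes and -0.074 in lithium plus MDI minus MDI; miR-30b, miR-30c and miR-30e were at -0.39, -0.13 and -0.65 in lithium minus preadipocytes; miR-30a, miR-30b, miR-30c and miR-30e were at -0.67, -0.61, -0.37 and -0.89 in lithium plus MDI minus preadipocytes. With no scaling miR-30a was at -0.68 in MDI minus preadipocytes and 0.12 in the interaction; miR-30b and miR-30e were at -0.18 and -0.45 in lithium minus preadipocytes; miR-30a, miR-30b, miR-30c and miR-30e were at -0.34, -0.29, -0.042 and -0.56 in lithium plus MDI minus preadipocytes. With normexp, miR-30a was at -0.058 in MDI minus preadipocytes, miR-30e at -0.28 in lithium minus preadipocytes, and miR-30b and miR-30e at -0.040 and -0.31 in lithium plus MDI minus preadipocytes. After quantile normalization miR-30d was at 0.016 in lithium minus preadipocytes, miR-30e at -0.18 in lithium plus MDI minus preadipocytes, miR-30a at -0.055 in lithium plus MDI minus MDI, and miR-30b and miR-30c at -0.31 and -0.17 in the interaction. With the authors' value table these 5 were at 0.069, -0.13, -0.12, -0.37 and -0.35. With the slide as a block miR-30d was at 0.31 in lithium minus preadipocytes and at 0.22 in lithium plus MDI minus preadipocytes. With array weights miR-30b was at 0.10 in MDI and miR-30d at 0.070 in lithium minus preadipocytes, and miR-30b, miR-30c and miR-30e at -0.58, -0.27 and -0.13 in the interaction. Without the 3 arrays that stood apart these 5 were at 0.058, 0.041, -0.54, -0.35 and -0.40. In the interaction miR-30b and miR-30c were at -0.085 and -0.11 with the mean of all detected probes and at -0.17 and -0.19 with the total gene signal. Leaving out single arrays gave -0.18 to 0.28 for miR-30b and -0.26 to 0.27 for miR-30c in the interaction, -0.28 to 0.058 for miR-30b in MDI minus preadipocytes, and -0.37 to 0.0076 for miR-30d and -0.14 to 0.33 for miR-30e in lithium plus MDI minus preadipocytes. In lithium plus MDI minus lithium it gave -0.32 to 0.14 for miR-30b, -0.42 to 0.11 for miR-30c, -0.31 to 0.073 for miR-30d and -0.38 to 0.086 for miR-30e.

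Same-numbered samples showed no uniform pairing, with r of deviations from the group means between -0.48 and 0.47 over 18 pairs. Of these, 9 were over 0.1 and 5 under -0.1, so whether the numbers mark pairs is not settled. With the number as a replicate block 0 members passed in each of the 7 comparisons. Normexp on the mean signal was not run, since the files used here hold no such column. Signal over background limits the passenger strands and the dimmer probes, some of which lie at the floor, and 9.02% of tested values did.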
